A study of Mus musculus with 5 samples.

Results

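The genes described are 32 listed members of the p53 response: p53 itself (Trp53), its regulators and relative, and genes that p53 is known to activate or that act beside it. They were taken by gene symbol from a table of 17657 genes, and all 32 were found there. The cells were cultured mouse epidermal stem cells, which give rise to the keratinocytes of the skin, kept in the keratinocyte medium KGM2, and their RNA was sequenced. The KO group (libraries KO1 and KO2) came from mice labelled Angptl4 knockout, which lack a secreted inhibitor of lipoprotein lipase, and the WT group (libraries WT1, WT2 and WT3) from wild-type mice. All mice were male C57BL/6 animals labelled 8 weeks, and no treatment is named for either group. The labels do not say which part of Angptl4 was removed, and they name no separate animal or culture for each library. The p-values therefore rest on the spread among 5 libraries, and that spread may be technical.

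p53 is a transcription factor that is kept low by the ubiquitin ligase Mdm2 and its partner Mdm4. Stress such as DNA damage releases p53, which then binds paired half-sites in DNA and raises genes for cell cycle arrest, DNA repair, metabolic adjustment and apoptosis, Mdm2 among them. In skin, p53 is known for the response to ultraviolet light, and its relative p63 (Trp63) is the factor that maintains the basal layer.

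Libraries held 20283084 to 20773407 expected counts. Angptl4, the targeted gene, was at 0.86 and 1.11 TPM (a transcript level scaled by length and library size) in KO1 and KO2, against 7.34, 6.09 and 4.34 TPM in WT1, WT2 and WT3, and fell by 2.56 ± 0.32 (SE) on the log2 scale (edgeR quasi-likelihood test, Benjamini-Hochberg adjusted p = 0.00458). The KO libraries varied more than the WT libraries, with a biological coefficient of variation of 28.8% in KO and 5.21% in WT. Krt5 and Krt14, the basal keratinocyte keratins, were the markers by which the labelled cell type was checked. Krt5 was at 21857 and 16506 TPM in KO1 and KO2 and at 15052 to 15530 TPM in the WT libraries. Krt14 was at 19987 and 16275 TPM in KO and 17116 to 17920 TPM in WT. Neither keratin passed with all libraries, while other keratinocyte markers rose or fell, as given further below.

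The p53 target genes did not move as a block. Of the 32, 10 were higher in KO (Trp73, Eda2r, Btg2, Fas, Trp53inp1, Ddit4, Zmat3, Mdm4, Phlda3 and Fbxw7), 5 were lower (Rrm2b, Gadd45a, Trp53, Ccng1 and Apaf1) and 17 did not pass an adjusted p of 0.05. All 32 passed the filter on low counts. The 10 higher genes were 31.2% of the members, where 20.4% of all 12957 tested genes were higher, and the 5 lower genes were 15.6%, where 20.4% of all tested genes were lower. In either direction 46.9% of the members changed, against 40.8% of all tested genes, so the share that changed was near the background. The median log2 change of the members was 0.17 and that of all tested genes 0.02; without KO1 the medians were 0.19 and 0.0028, and without KO2 they were 0.04 and -0.0034. In 15 members both KO libraries lay above every WT library in TPM, in 9 both lay below, and in 8 the groups overlapped; over all tested genes 30.7% lay above and 35.5% below. Changes of at least 2-fold were found for 6 members (all higher), and for 13.9% of all tested genes. Without WT1, WT2 or WT3, the higher members numbered 4, 4 and 5 (background 7.62, 8.81 and 8.68%) and the lower members 1, 1 and 1 (background 7.6, 8.94 and 8.77%). Without KO1, 15 members were higher (background 29.3%) and 7 lower (background 30.5%), and without KO2, 12 were higher (background 30%) and 10 lower (background 30.9%). In bulk RNA, fewer cells of a type and less RNA per cell cannot be told apart.

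**Figure D1:**
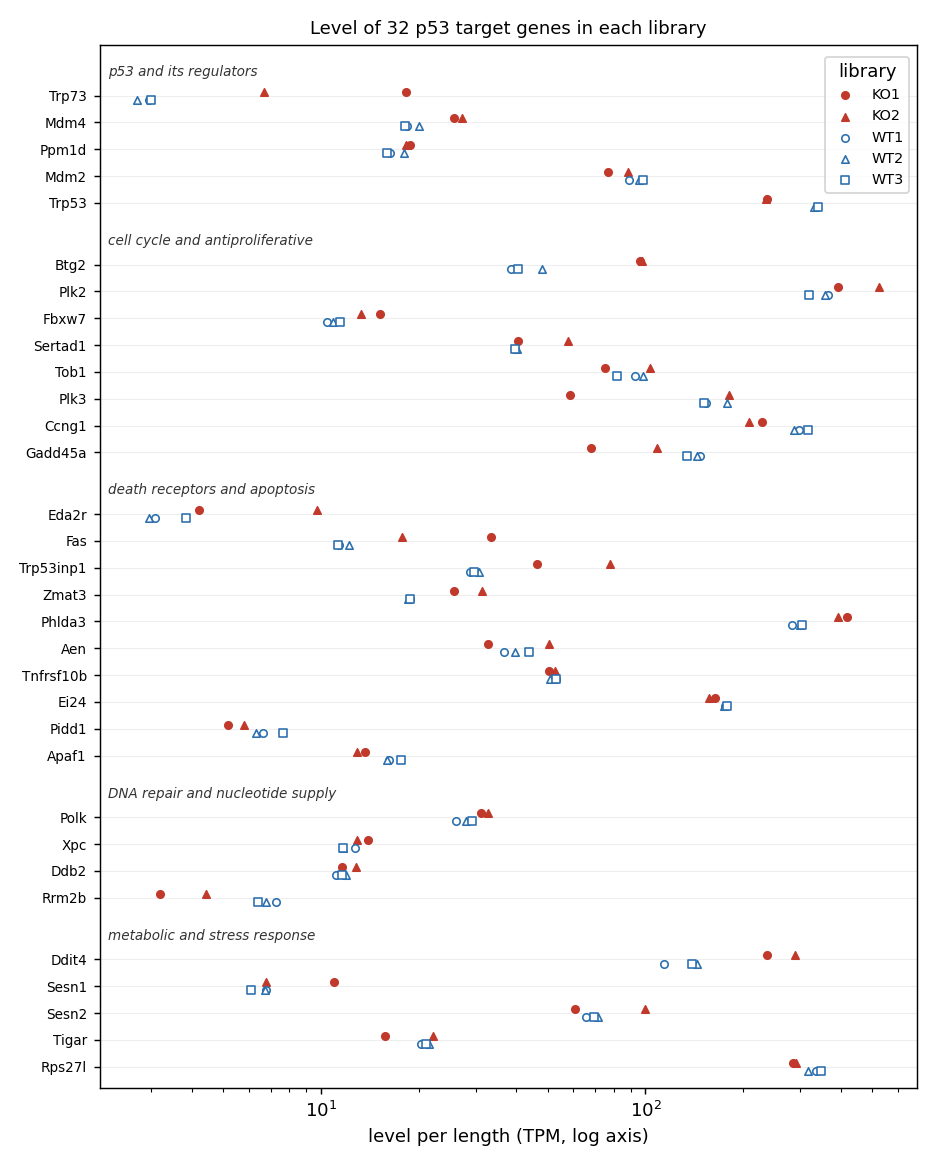
Level of each of the 32 p53 target genes in TPM (log axis), with filled red symbols for KO1 and KO2 and open blue symbols for WT1, WT2 and WT3, grouped by role. The WT libraries of a gene lie close together, and the KO symbols stand to the right of them for Btg2, Ddit4 and Trp73 and to the left for Trp53, Ccng1 and Rrm2b.

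Levels spanned a wide range: the WT mean ran from 2.89 TPM for Trp73 to 348 TPM for Plk2, and 8 of the 32 members lay among the top 10% of tested genes by mean TPM. The lowest summed count over the 5 libraries was 1071, for Sesn1. Half-site matches in DNA next to the gene starts were looked for in RefSeq promoter windows of GRCm38.p6, each reaching 250 bases before to 50 bases after a start, which were at hand for 26 members (34 windows). The p53 half-site consensus is a pattern of 10 bases, RRRCWWGYYY (R is A or G, W is A or T, Y is C or T). The pattern is the same on both strands, though a single match need not be. At least 1 match was found for 10 of these 26 genes (38.5%), and for 9.55% of all 27025 genes with windows. By window, 11 of 34 member windows and 8.36% of all windows held a match. With the match restricted to a CATG core, 1 of the 26 genes was left, and 2.24% of all genes. Of the 10 matched genes 3 were lower in KO (Trp53, Ccng1 and Gadd45a), 7 did not pass (Mdm2, Ppm1d, Aen, Ei24, Polk, Sesn1 and Rps27l) and 0 were higher, out of 4, 14 and 8 genes with a window in those classes. A match describes letters in the window and does not show binding. Nor does a missing match show that a gene lacks a p53 site. Only single half-sites were looked for, DNA outside the windows was not searched, and some members had no window. The split of matches between higher and lower genes was not tested. The stretches below, all upstream of the start, are shown because they belong to p53 itself, to its feedback genes Mdm2 and Ppm1d, to both cell cycle genes that fell, and to Ei24, which holds the CATG core. They are written from 5′ to 3′ on the strand of the gene, with the half-site match in capitals.
Trp53, chr11:69580259-69580318, plus strand: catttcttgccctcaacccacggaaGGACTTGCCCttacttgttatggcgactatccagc
Mdm2, chr10:117710910-117710969, minus strand: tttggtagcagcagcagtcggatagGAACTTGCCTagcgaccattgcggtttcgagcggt
Ppm1d, chr11:85311097-85311156, plus strand: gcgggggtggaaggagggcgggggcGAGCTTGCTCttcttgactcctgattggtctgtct
Ccng1, chr11:40755437-40755496, minus strand: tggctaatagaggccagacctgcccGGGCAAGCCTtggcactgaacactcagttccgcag
Gadd45a, chr6:67037413-67037472, minus strand: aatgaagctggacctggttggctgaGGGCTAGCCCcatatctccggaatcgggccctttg
Ei24, chr9:36797335-36797369, minus strand: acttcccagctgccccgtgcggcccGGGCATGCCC

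The first group holds p53 and the genes that control it. Trp53 (chromosome 11, 69580348 to 69591873) was lower in the KO cells, at 236 and 235 TPM in KO1 and KO2, against 338, 329.9 and 341 TPM in WT1, WT2 and WT3. The 2 KO libraries were nearly equal and both lay below every WT library, and the gene fell by 0.49 ± 0.07 (SE) on the log2 scale (edgeR adjusted p = 0.00639). Mdm4 (chromosome 1, 132986105 to 133030587), which binds p53 and inhibits it, moved the other way, at 25.7 and 27.2 TPM in KO1 and KO2 against 18.4, 20 and 18.1 TPM in WT1, WT2 and WT3. Its rise was 0.51 ± 0.07 on the log2 scale (edgeR adjusted p = 0.0061), with no overlap between the groups.

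Mdm2 (chromosome 10, 117688875 to 117710758), the ubiquitin ligase that marks p53 for degradation and is itself raised by p53, was at 76.5 and 88.6 TPM in KO1 and KO2 and at 88.8, 95.5 and 98.3 TPM in WT1, WT2 and WT3. KO2 lay just under the lowest WT library, and the log2 change of -0.15 ± 0.10 did not pass (edgeR adjusted p = 0.261). Ppm1d, the phosphatase that switches p53 signalling off, was at 18.9 and 18.3 TPM in the KO libraries and 15.97 to 18.01 TPM in the WT libraries, a log2 change of 0.17 ± 0.09 that did not pass (edgeR adjusted p = 0.183).

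Trp73 (chromosome 4, 154056249 to 154139875), which encodes the p53 relative p73, had the largest log2 change of the 32 genes. It was at 18.3 TPM in KO1 and 6.70 TPM in KO2, against 2.95, 2.71 and 3.0 TPM in WT1, WT2 and WT3. Both KO libraries lay above every WT library, but KO1 was 2.73 times KO2. The rise was 2.14 ± 0.41 on the log2 scale (4.41-fold, edgeR adjusted p = 0.0135), 1.23 without KO1 and 2.70 without KO2. It did not pass with WT1, WT2 or WT3 left out (adjusted p = 0.063, 0.0627 and 0.0609; range over its 16 alternatives 1.7e-06 to 0.063). An antisense gene overlaps 5.06% of the exon bases of Trp73, and the table gives 1 value per gene, so p73 isoforms cannot be told apart here.

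Of the 8 cell cycle and antiproliferative genes, 2 rose (25%) and 2 fell (25%), where 20.4% of all tested genes were higher and 20.4% lower. Btg2 (chromosome 1, 134074865 to 134079155), an antiproliferative gene, was at 96.3 and 97.6 TPM in KO1 and KO2, against 38.5, 48.1 and 40.6 TPM in WT1, WT2 and WT3. The KO libraries agreed closely and stood far above WT, with a rise of 1.21 ± 0.11 on the log2 scale (2.32-fold, edgeR adjusted p = 0.00253). Fbxw7 (chromosome 3, 84814990 to 84979198), which targets cyclin E and Myc for degradation, was at 15.2 and 13.3 TPM in KO1 and KO2 against 10.4, 10.9 and 11.5 TPM in WT1, WT2 and WT3, a log2 rise of 0.35 ± 0.09 (edgeR adjusted p = 0.0331). The rise of Fbxw7 did not pass once WT1, WT2 or WT3 was omitted (adjusted p = 0.131, 0.122 and 0.082; range over its alternatives 0.00308 to 0.166).

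Ccng1 (chromosome 11, 40748552 to 40755286), which encodes cyclin G1 and is among the most widely used p53 targets in mouse, was at 228 and 209 TPM in KO1 and KO2, against 297, 287 and 318 TPM in WT1, WT2 and WT3. Both KO libraries lay below WT, and it fell by 0.44 ± 0.10 on the log2 scale (edgeR adjusted p = 0.019). Gadd45a (chromosome 6, 67035096 to 67037407), a growth arrest and DNA damage gene, was at 67.7 TPM in KO1 and 108 TPM in KO2 against 148, 144 and 134 TPM in WT1, WT2 and WT3. It fell by 0.67 ± 0.20 on the log2 scale (edgeR adjusted p = 0.046), 0.381 without KO1 and 1.03 without KO2. Both calls were lost when WT1, WT2 or WT3 was left out: the adjusted p was 0.0877, 0.0682 and 0.088 for Ccng1 (lowest and highest over the 16 alternatives 0.000331 and 0.199), and for Gadd45a it was 0.136, 0.126 and 0.111 (lowest and highest 2.57e-05 and 0.136). A noncoding gene on the opposite strand overlaps 19.1% of the exon bases of Gadd45a, and the sources do not give the strand setting of the counting.

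The other 4 cell cycle genes did not pass. Plk2, a polo-like kinase, was at 393 and 525 TPM in KO1 and KO2 and 319 to 366 TPM in WT, a log2 change of 0.42 ± 0.15 (edgeR adjusted p = 0.0713). Its relative Plk3 was split between the KO libraries, at 58.5 TPM in KO1 and 181 TPM in KO2, against 152 to 178 TPM in WT, so that the log2 change was -1.43 without KO2 and 0.18 without KO1. Sertad1, which binds the kinase Cdk4, was at 40.5 and 57.6 TPM in KO1 and KO2 and 39.7 to 40.3 TPM in WT. Tob1, an antiproliferative relative of Btg2, was at 75.3 and 104 TPM in KO1 and KO2, on either side of its 81.5 to 98.6 TPM in WT.

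**Figure D2:**
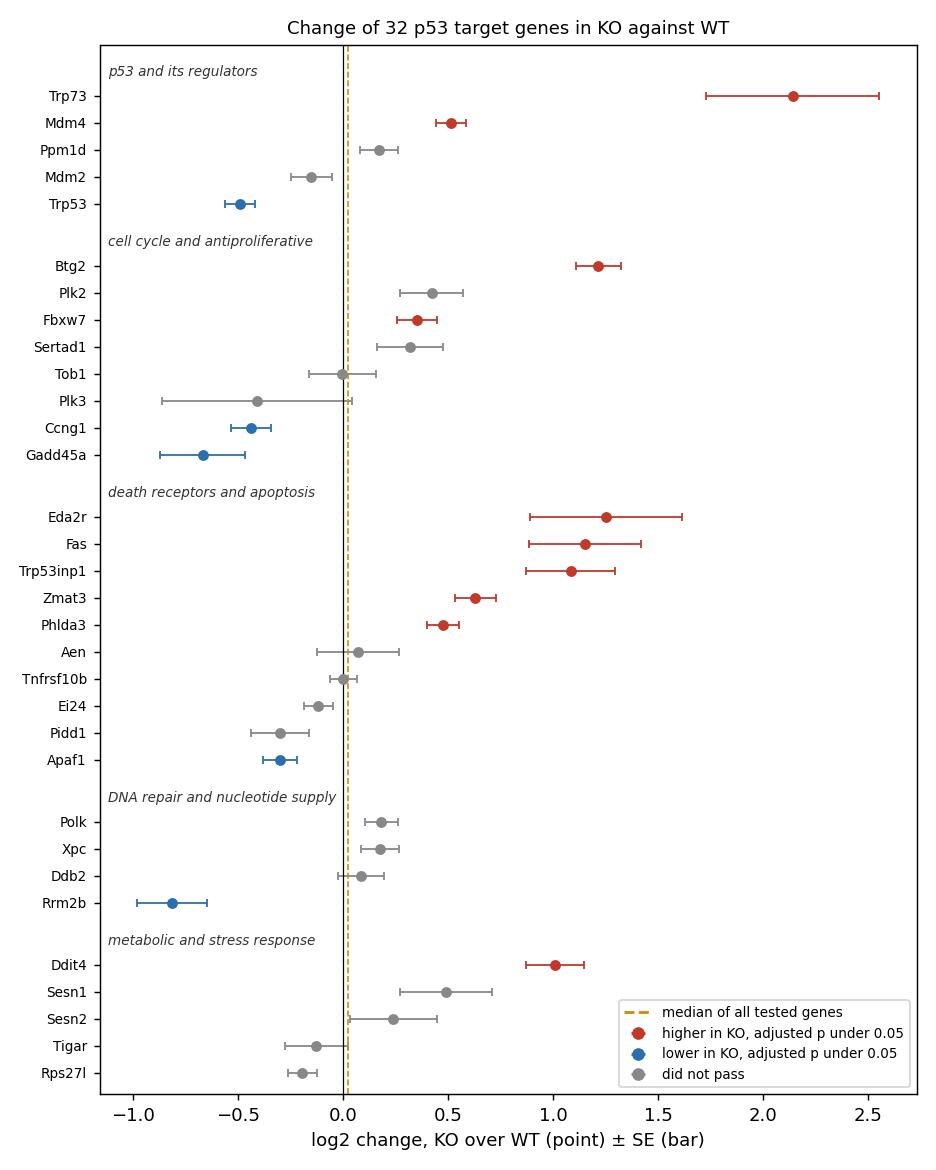
Log2 change of each p53 target gene in KO over WT (point) with its standard error (bar), from the edgeR fit over all tested genes, coloured by whether the adjusted p was under 0.05. The 10 higher genes reach from 0.35 (Fbxw7) to 2.14 (Trp73) and the 5 lower genes from -0.30 (Apaf1) to -0.81 (Rrm2b).

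Of the 10 genes of death receptors and apoptosis, 5 rose, 1 fell and 4 did not pass, where 20.4% of all tested genes were higher and 20.4% lower. Fas (chromosome 19, 34290647 to 34327775), a death receptor at the cell surface, was at 33.4 TPM in KO1 and 17.8 TPM in KO2, against 11.4, 12.2 and 11.3 TPM in WT1, WT2 and WT3. Its rise was 1.15 ± 0.27 on the log2 scale (2.23-fold, edgeR adjusted p = 0.0222), 0.63 without KO1 and 1.55 without KO2. Eda2r (chromosome X, 97333837 to 97377234), a receptor of the same superfamily that binds ectodysplasin A2, showed the opposite order of the KO libraries, at 4.22 TPM in KO1 and 9.70 TPM in KO2 against 3.08, 2.96 and 3.84 TPM in WT1, WT2 and WT3. It rose by 1.25 ± 0.36 on the log2 scale (edgeR adjusted p = 0.0416), 1.72 without KO1 and 0.54 without KO2. Neither receptor passed once a WT library (WT1, WT2 or WT3) was omitted: the adjusted p was then 0.0872, 0.0785 and 0.0847 for Fas, within 1.42e-05 to 0.0872 over its alternatives, and 0.118, 0.132 and 0.109 for Eda2r, within 4.5e-05 to 0.147. The third death receptor, Tnfrsf10b, was at 50.6 and 52.6 TPM in KO1 and KO2 and 50.96 to 53.01 TPM in WT, with a log2 change of 0.001 ± 0.06.

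Trp53inp1 (chromosome 4, 11156441 to 11174379), a nuclear protein that promotes the p53 apoptotic response, was at 46.3 TPM in KO1 and 77.8 TPM in KO2, against 28.9, 30.7 and 29.6 TPM in WT1, WT2 and WT3. It rose by 1.08 ± 0.21 on the log2 scale (2.12-fold, edgeR adjusted p = 0.0143), 1.40 without KO1 and 0.67 without KO2. This call was lost when any WT library was left out (adjusted p = 0.0681, 0.0601 and 0.0642; range over its alternatives 1e-06 to 0.0681). Zmat3 (chromosome 3, 32334792 to 32365665), an RNA-binding zinc finger protein, was at 25.8 and 31.4 TPM in KO1 and KO2 against 18.9, 18.6 and 18.8 TPM in WT1, WT2 and WT3. The WT libraries were nearly equal and both KO libraries stood above them, with a log2 rise of 0.63 ± 0.10 (edgeR adjusted p = 0.00739). Phlda3 (chromosome 1, 135766085 to 135769134), which represses the kinase Akt, was at 417.4 and 392.2 TPM in KO1 and KO2 against 283, 299.5 and 304 TPM in WT1, WT2 and WT3, a log2 rise of 0.48 ± 0.08 (edgeR adjusted p = 0.0086). The call of Phlda3 was lost without WT1 or WT2 (adjusted p = 0.0605 and 0.0526; range over its alternatives 2e-06 to 0.106). Mdm4, Btg2 and Phlda3 lie within a stretch of 2.78 Mb on chromosome 1. Of the 31 tested genes there, these included, 12 were higher (38.7%, against 20.4% of all tested genes) and 6 lower. Whether neighbouring genes changed together was not tested.

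The apoptosome scaffold Apaf1 (chromosome 10, 90989311 to 91082743) was the member of this group that fell. It was at 13.7 and 13.0 TPM in KO1 and KO2, against 16.26, 15.99 and 17.68 TPM in WT1, WT2 and WT3, and fell by 0.30 ± 0.08 on the log2 scale (edgeR adjusted p = 0.0334), a call lost when any WT library was left out (adjusted p = 0.109, 0.0895 and 0.121; range over its alternatives 0.00633 to 0.25). Pidd1, a death domain protein that activates caspase-2, was at 5.18 and 5.82 TPM in the KO libraries and 6.30 to 7.64 TPM in WT (edgeR adjusted p = 0.138). Ei24, an endoplasmic reticulum protein, was at 163 and 157 TPM in KO and 174 to 179 TPM in WT (edgeR adjusted p = 0.215). For both, the KO libraries lay below every WT library without passing the test. Aen, an apoptosis-enhancing nuclease, was at 32.7 TPM in KO1 and 50.5 TPM in KO2, around its 36.8 to 43.8 TPM in WT.

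Among the 4 genes of DNA repair and nucleotide supply only Rrm2b passed, and it fell (25%, where 20.4% of all tested genes were lower). Rrm2b (chromosome 15, 37923952 to 37966218), the p53-inducible subunit of ribonucleotide reductase, was at 3.20 and 4.44 TPM in KO1 and KO2 against 7.26, 6.77 and 6.42 TPM in WT1, WT2 and WT3. Both KO libraries lay below WT and the gene fell by 0.81 ± 0.17 on the log2 scale (edgeR adjusted p = 0.0163), but not past the threshold once WT1, WT2 or WT3 was omitted (adjusted p = 0.0755, 0.0659 and 0.0601; range over its alternatives 0.000276 to 0.0755). The 3 repair genes had log2 changes of 0.09 to 0.18. Xpc, a sensor of damaged DNA, was at 13.9 and 12.9 TPM in KO1 and KO2 and 11.7 to 12.8 TPM in WT (edgeR adjusted p = 0.179). Ddb2, which recognises ultraviolet lesions, was at 11.6 and 12.8 TPM in KO and 11.2 to 12.0 TPM in WT (edgeR adjusted p = 0.55), and Acp2 on the opposite strand overlaps 23.8% of its exon bases. The translesion polymerase gene Polk was at 31.2 and 32.7 TPM in KO and 26.1 to 29.2 TPM in WT (edgeR adjusted p = 0.116).

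Of the 5 metabolic and stress genes 1 rose (20%, where 20.4% of all tested genes were higher). Ddit4 (chromosome 10, 59949675 to 59951770), which encodes REDD1, an inhibitor of the growth kinase mTORC1, was at 236 and 289 TPM in KO1 and KO2, against 114, 144 and 139 TPM in WT1, WT2 and WT3. No KO library overlapped a WT library, and the rise was 1.01 ± 0.14 on the log2 scale (2.01-fold, edgeR adjusted p = 0.00566). The sestrins, which also restrain mTORC1, did not pass and were split between the KO libraries in opposite ways. Sesn1 was at 10.95 TPM in KO1 and 6.78 TPM in KO2 against 6.11 to 6.8 TPM in WT, and Sesn2 at 60.6 TPM in KO1 and 99.6 TPM in KO2 against 65.6 to 71.5 TPM in WT. Tigar, a fructose bisphosphatase that slows glycolysis, was at 15.7 and 22.1 TPM in KO1 and KO2 and 20.4 to 21.5 TPM in WT.

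Rps27l, a p53-inducible copy of the ribosomal protein gene Rps27, was at 285 and 290.1 TPM in KO1 and KO2 against 335, 317 and 348 TPM in WT1, WT2 and WT3, a log2 change of -0.19 ± 0.07 that did not pass (edgeR adjusted p = 0.0778). Its close copy Rps27 was at 2645 and 3268 TPM in KO and 2050 to 2211 TPM in WT, a log2 rise of 0.49 ± 0.11 (edgeR adjusted p = 0.0227), which was lost once WT1, WT2 or WT3 was omitted (adjusted p = 0.105, 0.0912 and 0.0815; range over its alternatives 8.01e-05 to 0.125). Counts of Rps27l were whole numbers in every library, while those of Rps27 were not whole in any of the 5, as happens where RSEM divides reads among loci.

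The KO libraries differed from each other for several members. KO2 was at least 1.5 times KO1 for 6 members (Plk3, Eda2r, Trp53inp1, Sesn2, Gadd45a and Aen; 11.8% of all tested genes), and KO1 at least 1.5 times KO2 for 3 (Trp73, Fas and Sesn1; 13.2% of all tested genes). For 26 members both KO libraries lay on the same side of the WT mean. For the other 6 (Plk3, Tob1, Sesn2, Tigar, Aen and Tnfrsf10b) KO2 lay above it and KO1 below. The share of all tested genes on the same side was not counted, so the 26 cannot be set against a background. The members' median log2 ratio to the WT mean was 0.01 in KO1 and 0.18 in KO2, where all tested genes had -0.04 and -0.02. Trp53, Btg2, Phlda3 and Mdm4 differed little between KO1 and KO2, with log2 ratios to the WT mean of -0.51 and -0.51 for Trp53, 1.18 and 1.20 for Btg2, 0.50 and 0.41 for Phlda3 and 0.45 and 0.53 for Mdm4.

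**Figure D3:**
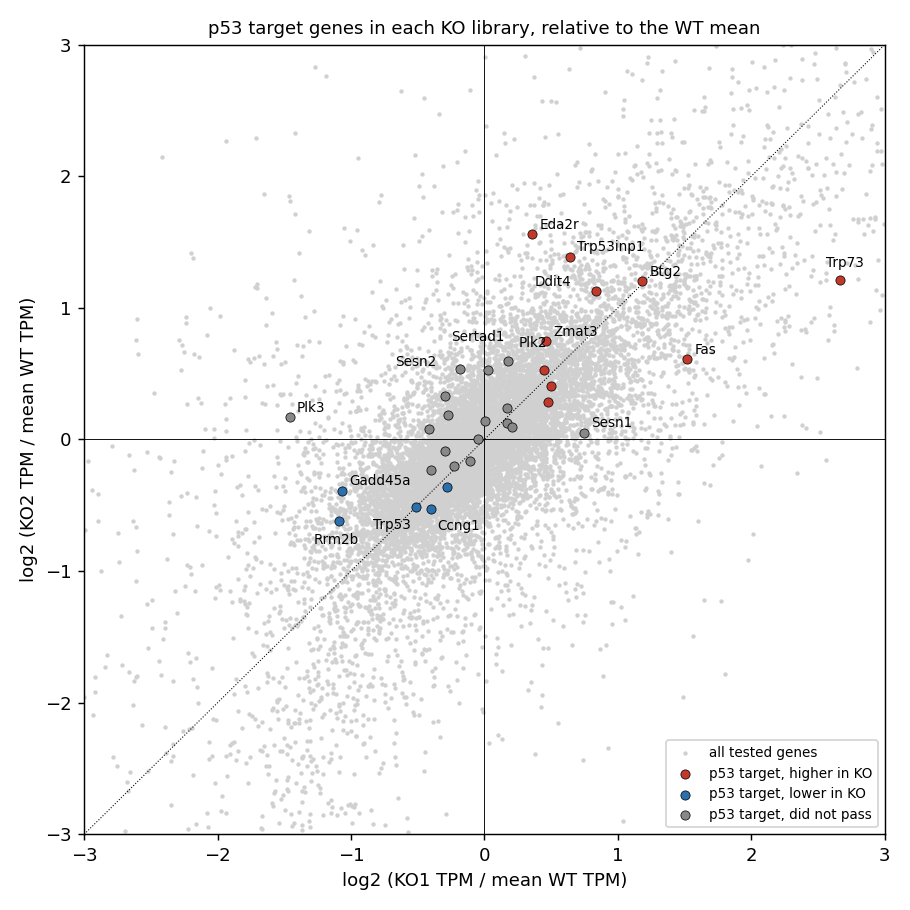
Each gene's log2 ratio to the WT mean in KO1 (horizontal axis) and in KO2 (vertical axis), in TPM, with all tested genes in grey and the p53 target genes in colour; 384 of 12957 tested genes lie beyond the plotted range of 3 log2 units. Btg2 and Trp53 lie on the diagonal, Trp73 and Fas below it (higher in KO1), and Eda2r, Trp53inp1 and Plk3 above it (higher in KO2).

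By the annotation in the deposited table, 16 of the 32 members belong to the KEGG p53 signalling pathway.

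A further 20 genes known as p53 targets, listed separately from the 32, held 10 that rose (50%), 2 that fell (10%) and 8 that did not pass, where 20.4% of all tested genes were higher and 20.4% lower. Their median log2 change was 0.44, and that of all tested genes 0.02. This list and the upstream list below were chosen with earlier results of these data known, so their shares are no independent test. Cdkn1a, which encodes the CDK inhibitor p21 and is the best known p53 target, was at 831 and 956 TPM in KO1 and KO2 against 589, 662 and 659 TPM in WT1, WT2 and WT3, a log2 rise of 0.51 ± 0.11 (edgeR adjusted p = 0.0181). Without WT1, WT2 or WT3, Cdkn1a did not pass (adjusted p = 0.0959, 0.0764 and 0.0762; range over its alternatives 6.38e-05 to 0.141), and 4, 5 and 5 genes of this list were higher (7.62, 8.81 and 8.68% of all tested genes) and 1, 1 and 2 lower (7.6, 8.94 and 8.77% of all tested genes). Bbc3 and Pmaip1, which encode the BH3-only death proteins PUMA and NOXA, rose by 2.30 and 1.35 on the log2 scale (edgeR adjusted p = 0.00268 and 0.000927), Bbc3 being at 19.9 and 31.3 TPM in KO against 5.44 to 5.52 TPM in WT. Their partner Bax was at 214 and 259 TPM in KO1 and KO2 and 187 to 201 TPM in WT and did not pass (edgeR adjusted p = 0.0519), though it did without KO1 or KO2 (adjusted p = 0.000577 and 0.0317), with DESeq2 size factors (0.0433), with DESeq2 (0.0281) and with a mean of at least 50 counts (0.0402). Over all its alternatives the adjusted p ran from 0.000577 to 0.173. Abhd4, a lipid hydrolase, rose by 0.60 on the log2 scale (edgeR adjusted p = 0.00418), while Ackr3, an atypical chemokine receptor, fell to 10.4 and 4.12 TPM in KO1 and KO2, against 45.4 to 55.4 TPM in WT (log2 change -2.82 ± 0.40, edgeR adjusted p = 0.00606).

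Of the 15 genes of upstream kinases and p53 cofactors, 2 rose (13.3%), 7 fell (46.7%) and 6 did not pass, where 20.4% of all tested genes were higher and 20.4% lower. Their median log2 change was -0.21, and that of all tested genes 0.02. Chek1, a checkpoint kinase of DNA replication, was at 3.24 and 3.04 TPM in KO1 and KO2 against 14.5, 12.7 and 12.6 TPM in WT1, WT2 and WT3, a log2 change of -2.06 ± 0.12 (edgeR adjusted p = 0.00128). Atm, the kinase that responds to double-strand breaks, was at 3.07 and 3.86 TPM in KO and 6.64 to 7.03 TPM in WT (log2 change -0.95, edgeR adjusted p = 0.00448). Trp63 was at 189 and 164 TPM in KO1 and KO2 against 333, 332 and 333 TPM in WT1, WT2 and WT3 and fell by 0.73 ± 0.10 on the log2 scale (edgeR adjusted p = 0.00518). Trp53 and Trp63 were thus both lower in KO, and Trp73 higher. With the replicate number as a block, Trp53 and Trp63 did not pass (edgeR adjusted p = 0.11 and 0.0626). Trp53bp1, which binds p53 and acts at DNA breaks, rose by 0.60 on the log2 scale (edgeR adjusted p = 0.0097), but not past the threshold without WT2 or WT3 (adjusted p = 0.0533 and 0.0533; range over its alternatives 0.000107 to 0.0637). Without WT1, WT2 or WT3, 1, 0 and 0 genes of this list were higher (7.62, 8.81 and 8.68% of all tested genes) and 3, 3 and 3 lower (7.6, 8.94 and 8.77% of all tested genes).

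**Figure D4:**
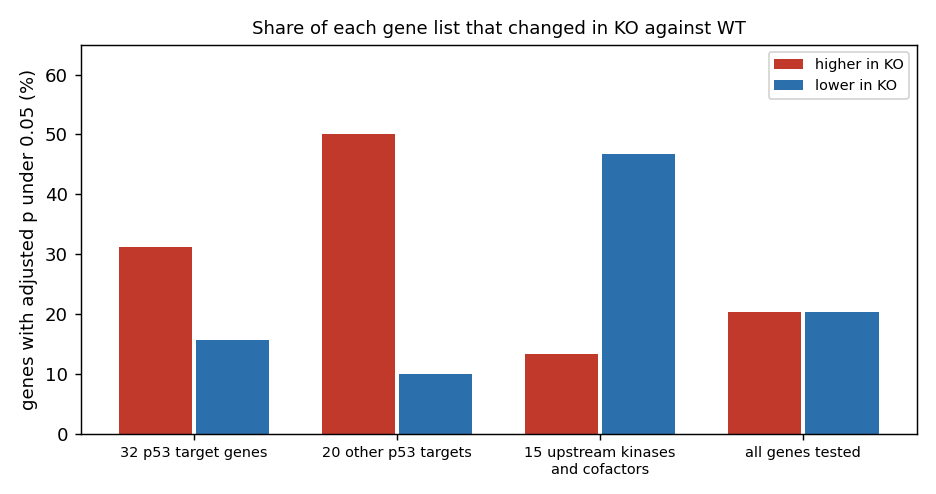
Percent of genes with adjusted p under 0.05 in KO against WT, higher (red) and lower (blue), for the 32 p53 target genes, 20 other p53 targets, 15 upstream kinases and cofactors, and all tested genes. The shares are 31.2 and 15.6%, 50 and 10%, 13.3 and 46.7%, and 20.4 and 20.4%.

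Markers of other skin cells were read beside these results. Of 16 fibroblast markers 14 were tested, of which 8 rose (57.1%, against 20.4% of all tested genes) and 0 fell. Their median log2 change was 2.61 (3.14 in KO1 and 1.73 in KO2), that of all tested genes 0.02 (-0.04 in KO1 and -0.02 in KO2), and their summed level was 417 and 207 TPM in KO1 and KO2 and 244 to 247 TPM in WT. Most of this sum came from Fbln2, Fbln1 and Sparc, which did not pass. Fbln2 was at 252 and 123 TPM in KO1 and KO2 and 174 to 184 TPM in WT. The sum therefore does not follow the markers that rose, which were at low levels. Among these, Postn was at 10.48 and 4.29 TPM in KO1 and KO2 and 0.03 to 0.13 TPM in WT. Col1a1 was at 6.18 and 1.38 TPM in KO1 and KO2 and 0.05 to 0.53 TPM in WT. Lum was at 0.60 and 0 TPM in KO and 0 to 0.05 TPM in WT. Of the 12 keratinocyte markers 3 rose (Krt15, Itgb4 and Cdh1) and 2 fell (Trp63 and Itga6). These shares of 25% higher and 16.7% lower were near those of all tested genes (20.4 and 20.4%). Itga6 was at 216 and 199 TPM in KO1 and KO2 and 369 to 421 TPM in WT. Krt15 was at 3.08 and 1.66 TPM in KO1 and KO2 and 0.11 to 0.58 TPM in WT. The 12 markers summed to 54910 and 43070 TPM in KO1 and KO2 and 43690 to 44510 TPM in WT. Melanocyte markers summed to 5.25 and 7.98 TPM in KO and 4.85 to 5.84 TPM in WT, immune markers to 8.04 and 14.1 TPM in KO and 0.53 to 11.7 TPM in WT, and endothelial markers to 1.49 and 1.87 TPM in KO and 2.13 to 2.34 TPM in WT. Of these 3 lists only Kdr, an endothelial marker, passed, and it was lower. Ptprc, which marks all white blood cells, was at 0 and 0.04 TPM in KO and 0.02 to 0.06 TPM in WT. The part of the fibroblast markers in the changes of the p53 target genes was not tested. Trp63 stands in both the keratinocyte list and the upstream list.

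Of the 15 members that passed, 5 (Trp53, Mdm4, Btg2, Zmat3 and Ddit4) also passed with WT1, WT2 and WT3 left out in turn. How many of all called genes did so was not counted. Trp53, Mdm4 and Zmat3 were near the threshold without WT1 (edgeR adjusted p = 0.0495, 0.0457 and 0.0472). These 3 did not pass with the replicate block (edgeR adjusted p = 0.11, 0.0726 and 0.0589). Btg2 and Ddit4 passed in all 16 alternatives. Some members that did not pass with all 5 libraries passed with 1 KO library, which is then assumed to vary like the WT libraries. Without KO1 these were Plk2, Sertad1, Aen, Polk and Sesn2, which were higher, and Ei24 and Rps27l, which were lower. Without KO2 they were Xpc and Sesn1, which were higher, and Mdm2, Plk3, Aen, Tigar and Rps27l, which were lower. Aen thus passed in opposite directions with KO1 alone and with KO2 alone (log2 change -0.26 and 0.34, adjusted p = 0.0468 and 0.0136; range over its alternatives 0.0136 to 0.976). With a separate spread for each group 11 of the 15 passed, and Ccng1, Rrm2b, Fbxw7 and Apaf1 did not (adjusted p = 0.0587, 0.0543, 0.132 and 0.189 by limma-voom).

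**Figure D5:**
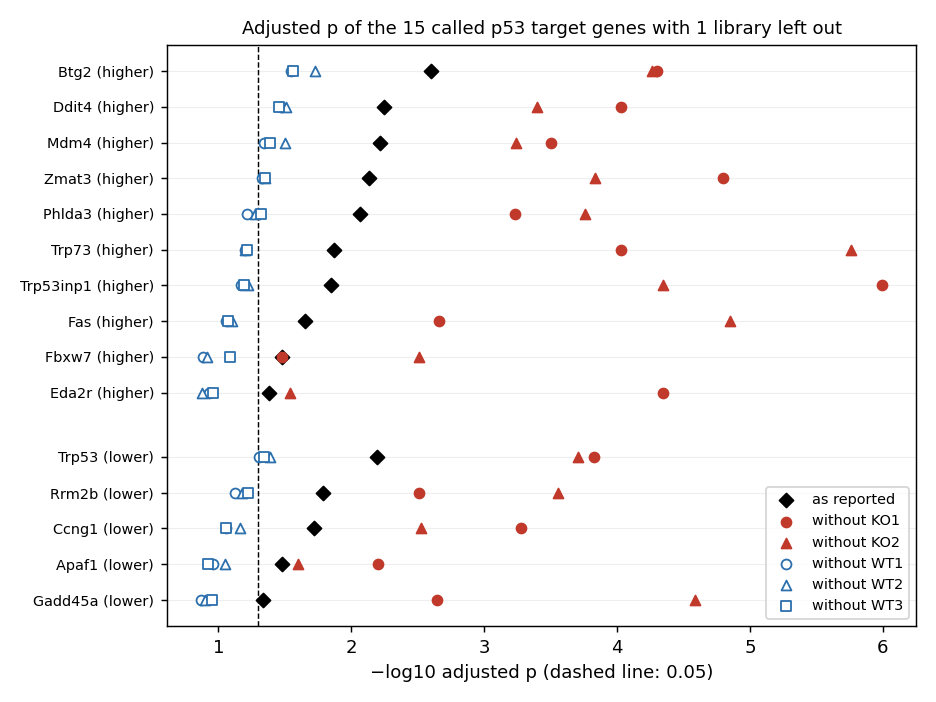
Adjusted p (−log10) of the 15 p53 target genes that passed, with all 5 libraries (black) and with 1 library left out; points to the right of the dashed line have an adjusted p under 0.05. Without a KO library every gene passes, and without a WT library the points of most genes fall left of the line, while those of Btg2, Ddit4, Mdm4, Zmat3 and Trp53 stay right of it.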

How the data were processed

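One deposited table of the whole series was used. Its expected counts are the authors' RSEM 1.3.1 estimates on GRCm38.p6, per the submitters' processing notes. RSEM splits reads that match several loci. The authors' TPM values, per the file headers, are scaled by transcript length and library. No aligner or strand setting is named.

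Rounded counts were compared between KO and WT, grouped by title, in R 4.3.3 with edgeR 4.0.16: filterByExpr, TMM factors (0.988 to 1.02), two-sided quasi-likelihood test, no covariate, Benjamini-Hochberg adjustment over 12957 genes, threshold 0.05. A standard error is the log2 change over the root of the test statistic. Log2 ratios of single libraries use TPM. Depth was 20283084 to 20773407 counts. No library was a copy of another: chi-square per degree of freedom was 107 between KO1 and KO2 and 3.45 to 6.45 between WT libraries. The test was checked on simulated counts that had the same spread in both groups. That check does not cover the unequal spread of KO and WT found here.

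The members and lists were chosen with earlier results of these data known. All 32 members are named, those that passed and the regulators with every library. Of the other pathway lists, preset genes and up to 4 with the smallest p are named. Of the marker lists, up to 2 each are named. Further markers (Kdr, Itga6, Krt15, Itgb4, Cdh1, Postn, Fbln1, Fbln2 and Sparc) were chosen after their values were seen. Alternatives were DESeq2 1.42.0 or its size factors, total count scaling, limma-voom (limma 3.58.1) with a shared or a separate spread per group, other count filters (none, or a mean of 50), a replicate block, each library omitted, and limma on log2(TPM + 1), also restricted to a mean TPM of 1, and on log2(TPM + 0.1). Gene coordinates are the deposited table's, promoter windows RefSeq's and exon overlaps from the GENCODE annotation, all of 1 build.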

Additional observations from a re-analysis of the deposited data

How the results depend on the processing

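Of the results for the 32 members in 16 alternatives, 423 kept their direction and side of the threshold, 58 no longer passed, 14 newly passed and 17 changed sign. Leaving out each library in turn gave 1957 to 8068 genes that passed, 4 to 15 higher members and 1 to 10 lower members. With a separate spread per group, 3192 genes passed, 9 members were higher and 2 lower (all tested genes 12.5 and 12.1%), and Angptl4 did not pass (log2 change -2.51, adjusted p = 0.127; its alternatives ran from 5.68e-09 to 0.127). With limma on log2(TPM + 1) and on log2(TPM + 0.1), 3 and 3 members were lower (14.9 and 14.9% of all genes). With the replicate block, 1598 genes passed, 4 members were higher (Btg2, Ddit4, Trp73 and Trp53inp1) and 0 lower (6.21 and 6.13% of all tested genes). Deviations of same-numbered KO and WT libraries correlated at 0.00714 and 0.0676. Both values use the same difference between KO1 and KO2. The coefficient of variation was 28.8% in KO and 5.21% in WT, so a shared shift of the WT size could go unseen. The correlations therefore cannot decide whether same-numbered libraries share more than a number. Promoter matches were found for 1 of the 26 genes with a CATG core. With 1 mismatch allowed they were found for 20 of the 26 (76.9%), and for 54.2% of all genes.

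Sign changes concerned genes that did not pass with all libraries. Tob1 had 0.0028 with DESeq2 size factors and 0.0028 with DESeq2, 0.0208 with total count scaling, 0.0248 with a mean of at least 50 counts, and -0.238 to 0.198 over the left-out libraries (0.0114 without WT1 and 0.0569 without WT2). Tnfrsf10b had -0.0115 without a filter, -0.02, -0.0203 and -0.02 in the TPM fits, and -0.0201 to 0.0171 over the left-out libraries. Over the left-out libraries the others ran from -1.43 to 0.177 (Plk3), -0.378 to 0.0841 (Tigar), -0.261 to 0.338 (Aen), -0.15 to 0.544 (Sesn2) and -0.0952 to 0.222 (Krt14). The cause of these shifts was not tested. With 2 KO libraries, the spread within KO rests on 1 difference per gene.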
